A study of Homo sapiens with 12 samples.

Results

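Carbonic anhydrases are zinc enzymes that turn carbon dioxide and water into bicarbonate and a proton, and back again. 8 genes of the family, CA2, CA4, CA5B, CA8, CA9, CA11, CA12 and CA13, were followed by gene name in the count tables, which held 15 carbonic anhydrase genes among 60106 genes. The 8 were chosen with their response to FOXA1 siRNA in these libraries already known. Their responses are therefore given as a description, with sizes and errors and no p-value. Where one of the 8 is said to be called, to pass or to be lost at an adjusted p under 0.05, this only places it beside the share of all genes past the same threshold and supports nothing.

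RNA was sequenced from 12 libraries of PC3 and VCaP, established lines from human prostate cancer, in a study of FOXA1 and the expression of splicing-related genes. PC3 comes from a bone metastasis, and VCaP comes from a vertebral metastasis and carries a TMPRSS2-ERG fusion. FOXA1 is a pioneer transcription factor that opens chromatin in prostate epithelium. Each line received either a non-targeting siRNA (NSI) or an siRNA directed at FOXA1 (siFOXA1), with 3 replicates per group. PC3 was transfected at 20 nM in RPMI medium and VCaP at 40 nM in DMEM, both with 10% foetal calf serum, and RNA was taken after 72 hours. PC3 libraries came from polyadenylated RNA with the TruSeq stranded mRNA kit and VCaP libraries from total RNA with the TruSeq total RNA kit. Line, dose, medium, kit and the strand setting used in counting therefore cannot be told apart. The labels do not say whether replicates were separate cultures, so p-values measure only the spread between these libraries. A knockdown lowers FOXA1 without removing it, and each line stands for 1 tumour.

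Total counts were 123140099 to 188226483 per PC3 library and 48187047 to 59839211 per VCaP library. Levels are given as CPM, counts per 1000000 counts of a library after scaling, and between genes as FPKM, the same value divided by the exon length in kilobases. FOXA1 stood at 303, 244 and 266 CPM in the PC3 NSI libraries and at 163, 182 and 162 CPM in the siFOXA1 libraries. In VCaP it stood at 458, 468 and 544 CPM with NSI and at 85.2, 73.6 and 83.0 CPM with siFOXA1. The target was thus lower in every siFOXA1 library, by -0.68 log2 in PC3 and by -2.60 log2 in VCaP. The VCaP markers KLK3, KLK2, ERG and TMPRSS2 were above 1 CPM in VCaP and below it in PC3. The 7 markers of fibroblasts, endothelium and leukocytes found by name summed to 23.1 to 27.1 CPM in PC3 NSI and to 40.0 to 44.7 CPM in PC3 siFOXA1, and to 5.31 to 10.5 and 2.38 to 6.70 CPM in VCaP. Their part in the results was not tested.

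The family sorts by where each protein works. CA4 is held on the outer cell surface by a lipid anchor, and CA9 and CA12 span the membrane with their catalytic domain outside the cell. CA5B sits in mitochondria, and CA2 and CA13 in the cytosol. CA8 and CA11 keep the carbonic anhydrase fold but are known as related proteins without the enzyme activity. In tumours the surface enzymes are studied for setting the pH on both sides of the membrane, and CA9 is a classical target of hypoxia-inducible factor.

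In the stretch that carries the first zinc-binding histidines, CA11 differs from the enzymes CA4, CA9, CA12 and CA5B. The sequences of CA2, CA8 and CA13 were not examined. The lines below give 30 coding bases of GRCh37, read on the coding strand, aligned to CA12, with the codons that align to its first 2 zinc-binding histidines in capitals.
CA4: cagttgCACctgCACtggtccgacttgcca
CA9: cagctgCATctgCACtggggggctgcaggt
CA12: cagctgCACctgCACtgggggaacccgaat
CA5B: cagttcCATtttCACtggggggccatcgat
CA11: gaactgCGGctgCTGtttggagctcgcgac
They lie at chr17:58234856-58234885 (plus strand, CA4), chr9:35676126-35676155 (plus, CA9), chr15:63637727-63637756 (minus, CA12), chrX:15790660-15790689 (plus, CA5B) and chr19:49143400-49143429 (minus, CA11), each in coding exon sequence. CA4, CA9, CA12 and CA5B have histidine codons (CAC or CAT) at both places, and CA11 has CGG and CTG. The translated proteins shared 36.3% (CA4), 40.5% (CA9), 35.3% (CA5B) and 34.2% (CA11) of aligned residues with CA12, over 292, 306, 232 and 243 residues.

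CA4, the lipid-anchored surface enzyme (ENSG00000167434.9_3, chr17:58227297-58236901), was near absent with NSI in VCaP and abundant with siFOXA1. It stood at 0.289, 0.259 and 0.356 CPM in the 3 NSI libraries, from 15, 13 and 20.5 counts. In the siFOXA1 libraries it stood at 21.0, 21.4 and 20.3 CPM, from 1058, 1074 and 1067 counts. The groups lay far apart and the siFOXA1 libraries were close to each other. The mean moved from 0.301 ± 0.0498 to 20.9 ± 0.527 CPM (SD, n = 3), a 69.3-fold ratio and a log2 change of 6.08 (SE 0.12, 95% interval 5.80 to 6.36). Counting error of the summed counts alone gave a wider 95% interval, 52.3-fold to 94.4-fold, so this SE is too small. In PC3 the gene had 1 count over the 3 NSI libraries and 4 counts, all in replicate 2, over the siFOXA1 libraries, and fell under the filter on low counts. No response of CA4 could be measured in PC3 at this depth.

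CA9, the hypoxia-regulated membrane enzyme (ENSG00000107159.12_2, chr9:35673853-35681156), had the reverse distribution between lines. It was at 22.2, 32.8 and 24.3 CPM in PC3 NSI and at 34.3, 51.2 and 41.4 CPM in PC3 siFOXA1. Replicate 2 was the highest in both groups, and the groups did not overlap. The mean went from 26.5 ± 5.59 to 42.3 ± 8.47 CPM (SD, n = 3), a log2 change of 0.68 (SE 0.18, interval 0.27 to 1.09). The call at an adjusted p under 0.05 was lost without NSI replicate 1 (0.58) or 3 (0.62), and without siFOXA1 replicate 2 (0.52) or 3 (0.69). VCaP held 1.85 estimated counts of CA9 in all with NSI and 2.50 with siFOXA1, both below the floor of 3 counts, so no fold between them is given.

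CA12, the other transmembrane enzyme (ENSG00000074410.13_3, chr15:63613577-63674360), was the only surface member well expressed in both lines. In PC3 it was at 73.0, 71.1 and 64.7 CPM with NSI and at 97.1, 92.1 and 102.5 CPM with siFOXA1. All 3 siFOXA1 libraries lay above all 3 controls. The log2 change in PC3 was 0.48 (SE 0.09, interval 0.28 to 0.68), from 69.6 ± 4.32 to 97.2 ± 5.20 CPM (SD, n = 3). VCaP had 92.2, 81.8 and 78.7 CPM with NSI and 92.7, 86.7 and 82.1 CPM with siFOXA1. There the groups overlapped almost fully, and the log2 change of 0.05 (SE 0.08, interval -0.12 to 0.22) did not pass. Its sign turned to -0.00085 without NSI replicate 3 and to -0.0022 without siFOXA1 replicate 1.

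**Figure D1:**
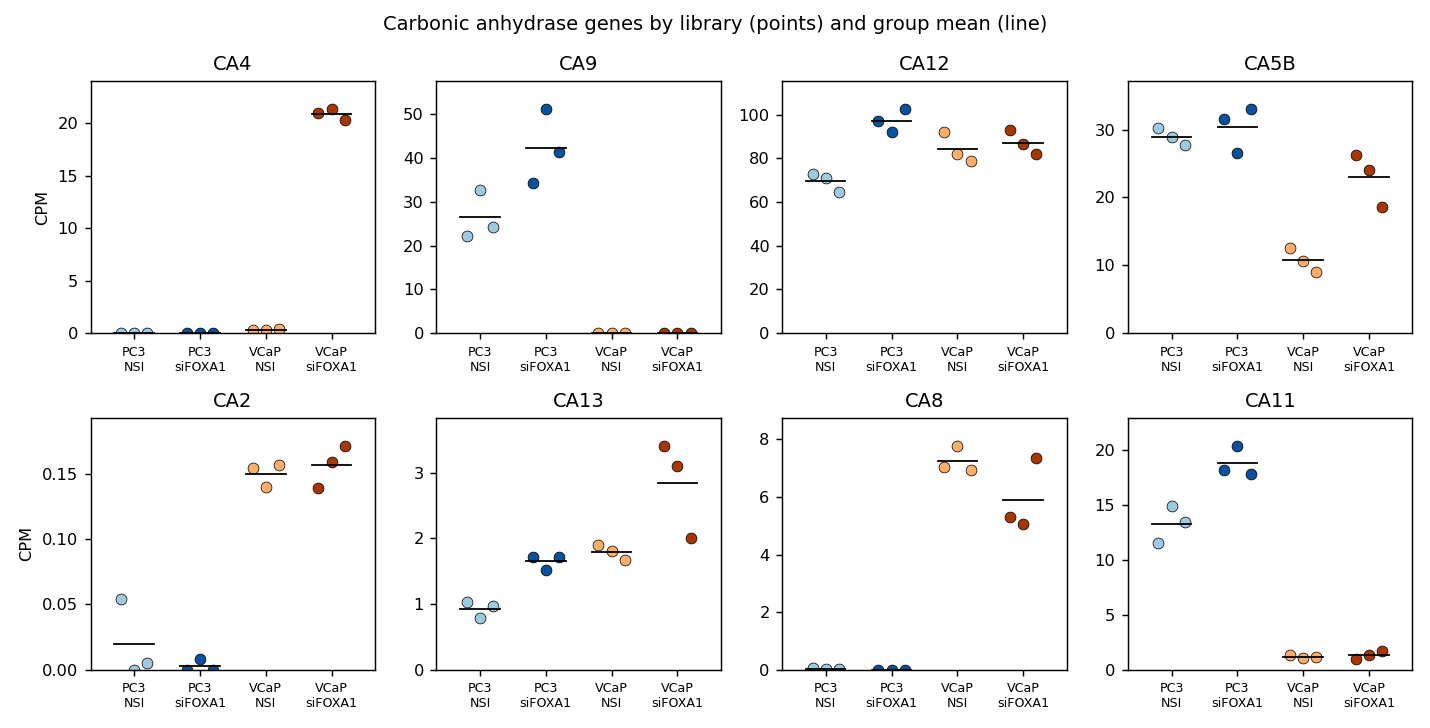
CPM of the 8 carbonic anhydrase genes (vertical axes, each on its own scale from 0) in the 12 libraries, by group; points are libraries and the black line is the group mean. CA4 is near 0 in all libraries except VCaP siFOXA1, where it stands at 20.3 to 21.4 CPM, CA9 is at 22.2 to 51.2 CPM in PC3 and near 0 in VCaP, and replicate 3 of VCaP siFOXA1 lies apart from the other two for CA5B, CA13 and CA8.

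CA5B, the mitochondrial enzyme (ENSG00000169239.12_3, chrX:15756393-15806532), was higher with siFOXA1 in VCaP. Its NSI libraries gave 12.5, 10.6 and 8.99 CPM and its siFOXA1 libraries gave 26.3, 24.0 and 18.6 CPM. The groups did not overlap, and siFOXA1 replicate 3 was the nearest to the controls. The mean went from 10.7 ± 1.76 to 23.0 ± 3.98 CPM (SD, n = 3), a log2 change of 1.10 (SE 0.15, interval 0.77 to 1.44). In PC3 the libraries gave 30.2, 29.0 and 27.7 CPM with NSI and 31.6, 26.6 and 33.0 CPM with siFOXA1. These overlapped, with a log2 change of 0.07 (SE 0.10, interval -0.16 to 0.30).

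Of the CA5B exon bases, 27.4% overlap INE2 on the opposite strand, and PC3 reads were counted without strand, so in PC3 the reads of both genes cannot be told apart there. INE2 itself was at 1.77 to 3.04 CPM in PC3 and at 0.0397 CPM or less in VCaP. CA5BP, a pseudogene related to CA5B, was at 19.7, 22.8 and 20.0 CPM in PC3 NSI and 14.6, 14.2 and 14.6 CPM in PC3 siFOXA1. In VCaP it was at 13.8, 13.9 and 14.5 CPM with NSI and at 14.2, 16.9 and 15.0 CPM with siFOXA1. The pseudogene fell in PC3 and did not pass in VCaP, at -0.53 log2 in PC3 (edgeR adjusted p = 0.0040) and 0.12 log2 in VCaP (adjusted p = 0.24). Multi-mapped reads were counted in fractions, per the file headers, so any reads shared by CA5B and CA5BP leave both values uncertain. How alike their sequences are was not examined.

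CA13, a cytosolic enzyme (ENSG00000185015.7_2, chr8:86157756-86196302), was low in both lines and the 1 member that was called higher in each. PC3 libraries gave 1.04, 0.794 and 0.965 CPM with NSI and 1.72, 1.52 and 1.72 CPM with siFOXA1. These groups did not overlap, and the log2 change was 0.83 (SE 0.16, interval 0.46 to 1.19). VCaP libraries gave 1.91, 1.80 and 1.68 CPM with NSI and 3.41, 3.11 and 2.01 CPM with siFOXA1. The groups were separate only by a small margin at siFOXA1 replicate 3, and the log2 change was 0.66 (SE 0.20, interval 0.22 to 1.10). In VCaP the call held in only 1 of the 6 fits that left out a library, the one without siFOXA1 replicate 3 (0.86); it was lost without NSI replicate 1 (0.69), 2 (0.66) or 3 (0.61) and without siFOXA1 replicate 1 (0.50) or 2 (0.59).

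CA2, the widespread cytosolic enzyme with very fast turnover (ENSG00000104267.9_2, chr8:86376081-86393722), was barely read in either line. In VCaP it had 8, 7 and 9 counts with NSI and 7, 8 and 9 counts with siFOXA1, a ratio of depth-scaled counts of 1.04 with a counting interval of 0.57 to 1.92. The groups overlapped, and a change smaller than that interval was not detectable at this depth. In PC3 it had 8, 0 and 1 counts with NSI and 0, 1 and 0 counts with siFOXA1. Most of these PC3 counts came from 1 library.

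CA8, a related protein without activity that binds an inositol trisphosphate receptor in neurons (ENSG00000178538.9_2, chr8:61099906-61193971), was a VCaP gene. It gave 7.03, 7.78 and 6.95 CPM with NSI and 5.31, 5.07 and 7.34 CPM with siFOXA1. The siFOXA1 libraries were spread: replicates 1 and 2 lay below all controls and replicate 3 lay among them. The log2 change of -0.29 (SE 0.14, interval -0.61 to 0.03) did not pass, and was -0.48 and past the threshold without siFOXA1 replicate 3. In PC3 the counts were 10, 5 and 2 with NSI and 0, 0 and 0 with siFOXA1, at least 5.64-fold lower against a floor of 3 counts over the group. This gene was under the filter in PC3, and it was called lower there in the fit without that filter and in the fit of all 12 libraries.

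CA11, the secreted related protein without histidine codons at the capitals shown above (ENSG00000063180.8_2, chr19:49141199-49149569), was mainly a PC3 gene. PC3 gave 11.6, 14.8 and 13.5 CPM with NSI and 18.2, 20.4 and 17.7 CPM with siFOXA1. All siFOXA1 libraries lay above the controls, with a log2 change of 0.50 (SE 0.11, interval 0.24 to 0.76). Without NSI replicate 3 the change stayed at 0.50 and no longer passed. VCaP gave 1.29, 1.05 and 1.11 CPM with NSI and 0.972, 1.32 and 1.66 CPM with siFOXA1. These overlapped, with a log2 change of 0.19 (SE 0.21, interval -0.28 to 0.66) that turned to -0.013 without siFOXA1 replicate 3.

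Small parts of the exons of CA13 (5.01%) and CA11 (4.01%) overlap genes of the opposite strand, and the exons of CA2, CA4, CA8, CA9 and CA12 overlap no other gene.

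**Figure D2:**
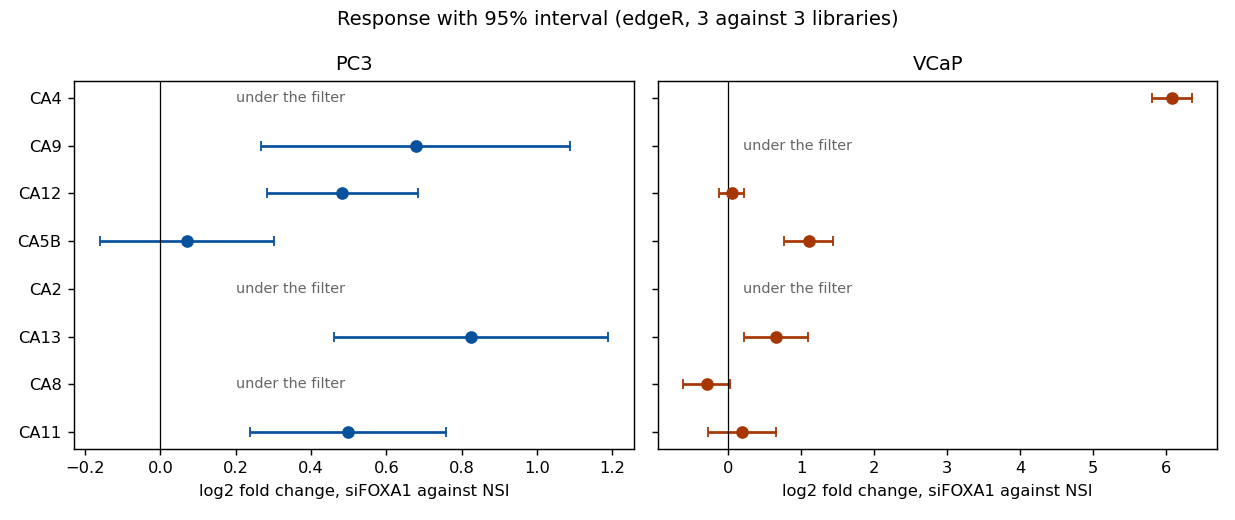
Log2 fold change of siFOXA1 against NSI with its 95% interval for each carbonic anhydrase gene that passed the filter on low counts; the 2 panels have different horizontal scales. In PC3 the points of CA9, CA12, CA13 and CA11 lie between 0.48 and 0.83, and in VCaP the point of CA4 at 6.08 stands far from CA5B at 1.10 and CA13 at 0.66.

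In PC3, 5 of the 8 genes passed the filter and 4 of these were called, all higher (CA9, CA11, CA12, CA13), against 27.7% of all 26478 genes tested called in either direction and 13.9% called higher. In VCaP, 6 passed and 3 were called, all higher (CA4, CA5B, CA13), against 45.8% of 22939 genes called and 22.5% called higher and 23.3% called lower. The libraries of the groups did not overlap for 4 of the 5 genes in PC3, beside 45.1% of all genes tested, and for 3 of the 6 in VCaP, beside 55.9%. The genes were picked on this contrast, so nothing is read from these counts. The median log2 change of the genes that passed was 0.50 in PC3 and 0.42 in VCaP, beside -0.01 and 0.02 over all genes tested. The PC3 count fell to 2, CA12 and CA13, without NSI replicate 3. With the replicate number as a block it stayed at 4, beside 42.8% of all genes called.

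Set side by side, the responses of the lines differed in size for several of the genes. The difference of the log2 changes, VCaP minus PC3, was 1.02 for CA5B (SE 0.19, interval 0.61 to 1.43) and -0.45 for CA12 (SE 0.13, interval -0.72 to -0.18). For CA8 it was 4.69 (SE 1.20), a value that rests on 17 counts against 0 in PC3. CA4 gave 4.52 with an SE of 2.63 on 1 and 4 counts in PC3, and 7.52 without PC3 siFOXA1 replicate 2. Past the threshold lay 3 of the 8 (CA5B, CA8, CA12), beside 22.1% of 30450 genes. CA8, CA4, CA9 and CA2 were under the filter in 1 or both lines alone, and the genes were picked on these responses, so nothing is read from that count. For CA13 the difference was -0.18 (interval -0.75 to 0.39) and for CA11 -0.32 (interval -0.81 to 0.17), so neither a like nor an unlike response is shown. FOXA1 itself was lowered by more in VCaP than in PC3, by -1.94 log2 (SE 0.15, edgeR adjusted p = 3.0e-07), and its part in these differences was not tested.

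Per exon length, the order of the genes differed between lines. In PC3 NSI, CA9 led at 16.4 ± 3.45 FPKM, then CA12 at 10.9 ± 0.673, CA11 at 7.20 ± 0.895, CA5B at 4.24 ± 0.183 and CA13 at 0.244 ± 0.0329 FPKM (SD, n = 3), each group of libraries clear of the next. CA2, CA8 and CA4 followed below 0.012 FPKM and overlapped. The first 5 kept this order in PC3 siFOXA1, at 26.2, 15.2, 10.2, 4.45 and 0.433 FPKM. In VCaP NSI, CA12 led at 13.1 ± 1.11 FPKM, followed by CA8 at 1.90 ± 0.120 and CA5B at 1.57 ± 0.258, which overlapped. CA11 at 0.625, CA13 at 0.471, CA4 at 0.261, CA2 at 0.0873 and CA9 at 0.00687 FPKM came after them without overlap.

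With siFOXA1 in VCaP, CA4 moved from sixth place to first. It reached 18.1 ± 0.457 FPKM, above CA12 at 13.6 ± 0.828 FPKM with no overlap between their libraries (SD, n = 3). CA5B at 3.36 ± 0.582 and CA8 at 1.55 ± 0.327 came next, CA13 at 0.745 and CA11 at 0.714 FPKM overlapped, and CA2 at 0.0911 and CA9 at 0.0102 FPKM were last. The level summed over CA4, CA9 and CA12, the genes of the surface enzymes, went from 13.4 ± 1.09 to 31.7 ± 1.16 FPKM in VCaP and from 27.2 ± 3.59 to 41.3 ± 4.85 FPKM in PC3. Its share of the 8 genes was 73.4% to 74.7% per VCaP NSI library and 82.9% to 83.2% with siFOXA1. In PC3 the shares were 68.4% to 71.5% and 70.9% to 75.0%, which overlapped. The sum over CA8 and CA11, the members without activity, was 14.0 ± 0.930% of the VCaP NSI total and 5.97 ± 1.53% with siFOXA1. Its level was 2.53 ± 0.0923 and 2.26 ± 0.490 FPKM, a difference larger than the NSI SD and smaller than the siFOXA1 SD.

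**Figure D3:**
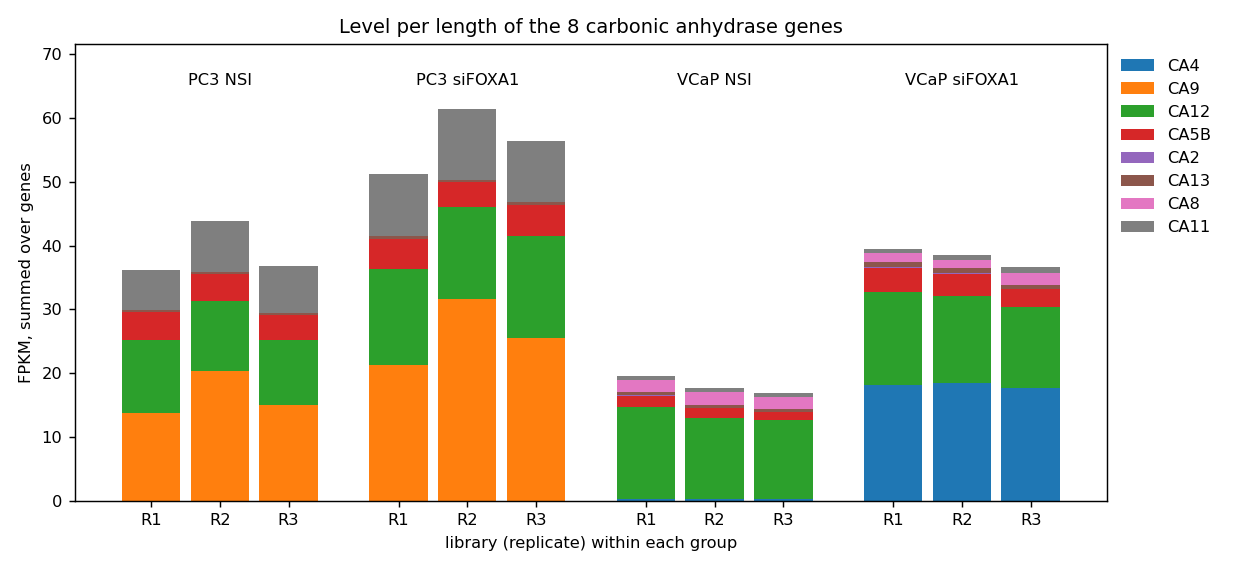
FPKM of the 8 carbonic anhydrase genes stacked for each of the 12 libraries (vertical axis, FPKM summed over genes; horizontal axis, replicate within group). CA9, CA12 and CA11 make up most of the PC3 columns of 36.1 to 61.4 FPKM, and CA4 appears beside CA12 in the VCaP siFOXA1 columns of 36.6 to 39.4 FPKM.

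Between the control cells of the lines, all 8 genes differed by edgeR's quasi-likelihood test, but so did 87% of 28170 genes. The choice of genes did not use this contrast, but the NSI libraries are 1 side of the contrast that it used. CA2, CA4 and CA8 passed the filter here only through VCaP and CA9 only through PC3. Their calls therefore support nothing, and no p-value is given for them. The adjusted p-values given below for the other members rest on NSI libraries that the choice also used, so they are a description and no independent support. 5 of the 8 were higher in VCaP and 3 lower, beside 42.4% and 44.6% of all genes, and the libraries of the lines did not overlap for any of the 8, beside 88.6%. That overlap used CPM scaled within each line and not between them, while the log2 values below come from 1 fit of the NSI libraries of both lines. Compared with PC3 NSI, VCaP NSI was lower in CA9 by -10.91 log2, in CA11 by -3.53 log2 (SE 0.15, adjusted p = 1.1e-09) and in CA5B by -1.44 log2 (SE 0.12, adjusted p = 3.9e-07). The CA9 value sets 12286 counts in PC3 against 1.85 in VCaP, a 2260-fold ratio of scaled counts whose counting interval, 579 to 17267, is wide because of the few VCaP counts. VCaP was higher in CA8 by 7.59 log2 (SE 0.31), with 17 counts in PC3 and 1155 in VCaP. CA4 had 1 count in PC3 NSI and 48.5 in VCaP NSI, a 142-fold ratio with a counting interval of 24.1 to 5685. CA13 (0.94 log2, adjusted p = 0.00066) and CA2 (2.88 log2) were also higher in VCaP. CA2 rests on 9 counts in PC3, 8 of them in 1 library, against 24 in VCaP, and was under the filter when any 1 PC3 NSI library was left out. CA12 was nearly level between lines: its 0.27 log2 (SE 0.10, adjusted p = 0.019) no longer passed without PC3 NSI replicate 3 (0.23, adjusted p = 0.090), without VCaP NSI replicate 1 (0.21, adjusted p = 0.11) or with no filter (0.12, adjusted p = 0.37). Kit, dose, medium and strand setting differ with the line in every one of these values.

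The other 7 carbonic anhydrase genes, CA1, CA3, CA5A, CA6, CA7, CA10 and CA14, were scarce. In PC3, 4 of them passed the filter and 0 were called by edgeR, beside 27.7% of all genes, with CA14, a transmembrane enzyme, the most abundant. It stood at 2.06, 3.04 and 2.34 CPM with NSI and at 3.29, 4.01 and 3.19 CPM with siFOXA1, without overlap, and its log2 change was 0.49 (SE 0.17, adjusted p = 0.063). With the replicate number as a block, a pairing that is not established, it was 0.50 (adjusted p = 0.0072). DESeq2 also called it, at 0.50 (adjusted p = 0.029), as did the fit without NSI replicate 2, at 0.71 (adjusted p = 0.011). CA14 was called in PC3 in 6 of 12 alternatives, with adjusted p from 0.0072 to 0.18 over them.

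CA1, the red cell enzyme, had 7, 5 and 0 counts in PC3 NSI and 11.5, 9 and 26.5 counts in PC3 siFOXA1, a log2 change of 1.91 that did not pass (SE 0.78, adjusted p = 0.10). In VCaP the same gene had 1, 0 and 2 counts with NSI and 11, 20 and 10 counts with siFOXA1, and was under the filter. The ratio of its scaled counts in VCaP was 14.2 with a counting interval of 4.54 to 71.9. CA1 was called higher in VCaP in the fits that tested it: with no filter, over all 12 libraries, and without any 1 NSI library or siFOXA1 replicate 3. The fit of all 12 libraries also called CA1 higher in PC3, at 1.96 log2 (adjusted p = 0.037), and CA14 higher in each line. CA6 and CA7 gave 0.91 and 0.02 log2 in PC3 (adjusted p = 0.21 and 0.96), and CA6 was called without NSI replicate 2. In VCaP, 1 of the 7 passed the filter, CA10, a member without activity, at 0.61 log2 (SE 0.35, adjusted p = 0.19), and 0 were called, beside 45.8% of all genes.

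Carbonic anhydrases work with transporters that carry bicarbonate, protons and lactate, and 29 such genes were followed. This list was chosen with earlier results of these data known, and the genes named are mostly those with the largest called changes. Their adjusted p-values are therefore a description and no independent support. In VCaP, 22 of them passed the filter, and 10 were called, 2 higher and 8 lower, beside 45.8% of all genes called. The largest rise was that of CFTR, a chloride and bicarbonate channel, at 1.10, 1.75 and 0.938 CPM with NSI and 6.69, 6.76 and 4.44 CPM with siFOXA1. The groups lay well apart, at 2.24 log2 (SE 0.24, edgeR adjusted p = 7.1e-05). SLC9A9, an endosomal sodium-proton exchanger, rose from 2.74, 2.17 and 1.94 CPM to 5.82, 5.92 and 5.83 CPM, or by 1.36 log2 (SE 0.13, adjusted p = 3.9e-05).

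The largest falls in VCaP were those of SLC9A3, SLC9A2 and SLC4A3. SLC9A3, the sodium-proton exchanger of absorptive epithelia, went from 9.86, 6.83 and 6.30 CPM to 1.77, 1.83 and 1.81 CPM (-2.09 log2, SE 0.18, adjusted p = 1.6e-05). SLC9A2, a related exchanger, went from 67.5, 63.7 and 68.9 CPM to 36.4, 31.9 and 33.0 CPM (-0.98 log2, SE 0.07, adjusted p = 3.7e-06). SLC4A3, an anion exchanger, went from 3.48, 3.32 and 3.04 CPM to 1.97, 2.32 and 2.13 CPM (-0.61 log2, SE 0.12, adjusted p = 0.0029). SLC4A2 and SLC4A4, which move bicarbonate, were also lower, as were SLC4A8 and EMB, at -0.60 to -0.29 log2. SLC4A4 was not called by DESeq2, nor without NSI replicate 1 or 2 or siFOXA1 replicate 2 or 3.

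In PC3, 26 of the 29 passed the filter and 5 were called, 3 higher and 2 lower, beside 27.7% of all genes. SLC9A9 rose there too, from 4.48, 5.42 and 4.36 CPM to 7.37, 8.98 and 8.82 CPM (0.82 log2, SE 0.13, adjusted p = 0.0025). SLC4A8, a sodium-driven bicarbonate exchanger, rose from 7.78, 6.96 and 7.70 CPM to 12.8, 10.9 and 12.6 CPM (0.69 log2, SE 0.11, adjusted p = 0.0021). It moved the other way in VCaP, from 11.9, 12.0 and 10.8 CPM to 8.73, 8.24 and 9.04 CPM (-0.42 log2, SE 0.08, adjusted p = 0.0028), and the responses differed by -1.13 log2 (SE 0.14, adjusted p = 3.2e-05). The third higher gene was SLC4A10, at under 1 CPM (2.02 log2, adjusted p = 0.0018).

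EMB, an ancillary protein of lactate transporters, fell in PC3 from 19.7, 15.9 and 18.6 CPM to 13.1, 11.3 and 11.4 CPM (-0.60 log2, SE 0.11, adjusted p = 0.0052). SLC9A2 fell from 9.17, 6.56 and 9.28 CPM to 6.32, 5.00 and 6.38 CPM (-0.50 log2, adjusted p = 0.049). That last call was lost in 7 of 12 alternatives, with adjusted p from 0.0017 to 0.15 over them. SLC9A3, the gene with the largest fall in VCaP, gave -0.09 log2 in PC3 (adjusted p = 0.63), and its responses differed by -2.01 log2 (SE 0.22, adjusted p = 9.4e-06). With the replicate block the PC3 count was 14, 7 higher and 7 lower, beside 42.8% of all genes, and without NSI replicate 2 it was 11, beside 27.9%. Both of these fits also called SLC4A3 higher, at 0.22 (adjusted p = 0.036) and 0.37 (adjusted p = 0.017) against 0.22 (adjusted p = 0.17), and its responses in the lines differed by -0.84 log2 (SE 0.16, adjusted p = 0.0013).

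**Figure D4:**
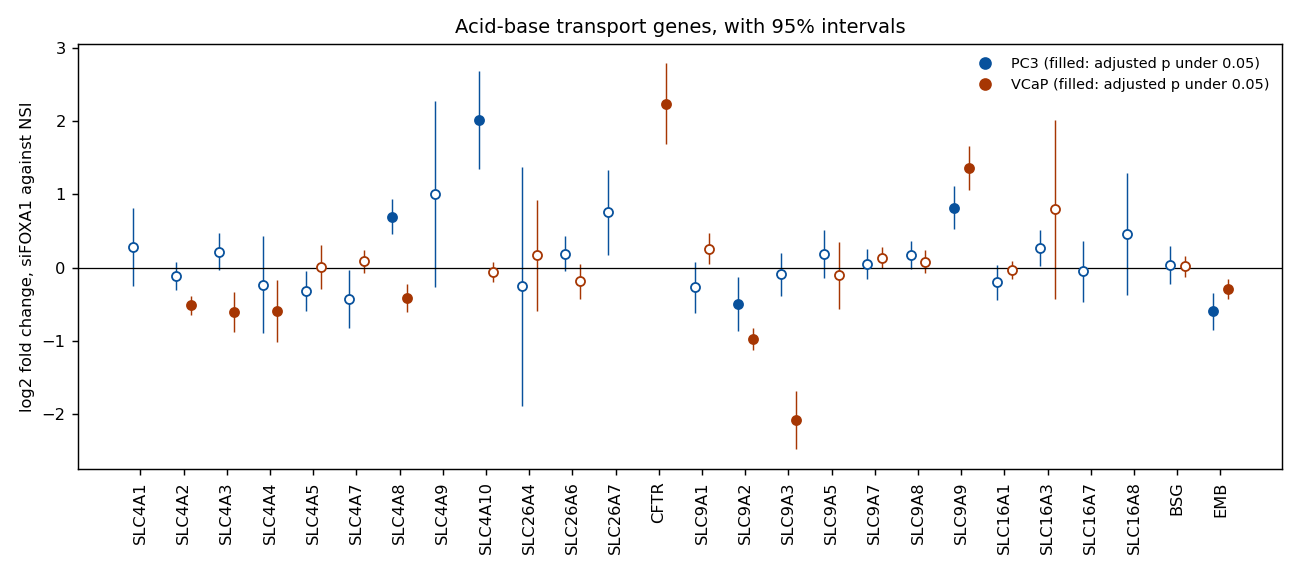
Log2 fold change of siFOXA1 against NSI with its 95% interval for 26 of the 27 acid-base transport genes that passed the filter in at least 1 line (PC3 blue, VCaP brown; filled points have an adjusted p under 0.05). CFTR and SLC9A9 are the filled VCaP points above 0 and SLC9A3, at -2.09, is the lowest.

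CA9 and CA12 are known to respond to low oxygen, so 9 other hypoxia-responsive genes were set beside them: ADM, ANKRD37, BNIP3, EGLN3, KDM3A, NDRG1, PDK1, SLC2A1 and VEGFA. This list, too, was chosen with earlier results of these data known, so its p-values are a description. In PC3, where CA9 and CA12 were higher, 1 of the 9 was called, ADM (adrenomedullin), from 15.1, 19.1 and 15.8 CPM to 35.0, 40.1 and 26.0 CPM (1.01 log2, SE 0.16, edgeR adjusted p = 0.0027), beside 27.7% of all genes. The others in PC3 lay between -0.18 and 0.20 log2 and did not pass. In VCaP, 5 were called: ADM (0.60), ANKRD37 (1.12), NDRG1 (0.53) and VEGFA (1.12) were higher and SLC2A1, the glucose transporter GLUT1, was lower (-0.54 log2, adjusted p = 0.012), beside 45.8% of all genes called. VEGFA stood at 15.7, 17.1 and 19.8 CPM in VCaP NSI and at 30.1, 27.9 and 56.6 CPM with siFOXA1. ANKRD37, at 2.02, 1.53 and 4.41 CPM with siFOXA1, was likewise highest in replicate 3, the library that stood nearest to the controls for CA5B, CA13 and CA8. Its call was lost without that library and without any 1 of the NSI libraries. The part of that library's difference in these values was not tested.

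The RefSeq promoter table, built on GRCh38.p14, held windows of 250 bases before to 50 after the start for CA5B, CA9 and CA12 among the genes whose sequences were examined. Both strands were searched for the forkhead motifs TGTTTAC and TGTTTGC and for the hypoxia-response core in its forms ACGTG and GCGTG. Neither forkhead motif occurred in these windows, beside 3.42% and 3.89% of all 35116 windows. CA9 held 1 ACGTG, on the reverse strand, CA5B held 1 ACGTG and 6 GCGTG, and CA12 held 2 GCGTG. Across all windows 21.4% held ACGTG and 36.5% held GCGTG. These matches describe letters in the windows only.

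Genes with a pattern like that of CA4 over the 12 libraries were ranked by Pearson's r of log2(CPM + 0.5) over the 17820 genes whose mean reached 1 CPM. The first 5 were the chemokine gene CXCL5 (0.998), PIGR, the polymeric immunoglobulin receptor (0.998), the lincRNA RP11-456A18.1 (0.997), the neutral amino acid transporter SLC6A19 (0.997) and AOC1, a diamine oxidase (0.997). In VCaP their means went from 0.320 to 8.99 CPM for CXCL5, from 0.279 to 12.8 CPM for PIGR and from 0.263 to 12.9 CPM for SLC6A19, and all 3 were below 0.03 CPM in PC3. Every one of these correlations rests on the same step between the 3 VCaP siFOXA1 libraries and the other 9. For CA12 the closest were RP11-446H18.3 (0.951), CCDC149 (0.935), ANKRD33B (0.926), SYNE1 (0.909) and TDRD7 (0.902). SYNE1, a nuclear envelope protein, was at 15.8 and 47.6 CPM in PC3 NSI and siFOXA1 and at 30.1 and 35.6 CPM in VCaP. The 12 libraries share line, kit and depth within each line.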

How the data were processed

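The deposited values were gene-level estimated counts from 12 libraries; featureCounts 2.0.0 on GENCODE v28lift37 (GRCh37) gave fractions to multi-mapped and overlapping reads, per the file headers, which show reverse-strand counting for VCaP and no strand option for PC3. Alignment used STAR 2.7.3a, per the submitters' processing notes. 54.8% to 75.2% of nonzero values were not whole.

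Counts were rounded and tested with edgeR 4.0.16 (filterByExpr, TMM, quasi-likelihood; R 4.3.3), each line alone, all 12 libraries for the difference of responses and the 6 NSI libraries between lines. Calls needed a Benjamini-Hochberg adjusted p under 0.05 over all genes. Each SE is the size of the log2 change divided by the square root of the test's F statistic. The 95% interval was built from it, and both can be too narrow where counts are few. The code was tested on simulated data. CPM used TMM-scaled totals within each line, and FPKM the files' exon lengths. Count ratios carry exact 95% intervals, which, like the floor of 3 counts, cover counting error only.

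The 8 genes and all lists were chosen with earlier results of these data known. Transport genes are named where they were among the 3 largest called rises or falls of a line at a mean of at least 1 CPM; SLC4A10 and 4 further falls in VCaP were named after their values were seen, and some values of the lists are not reported here. Neighbouring genes were added after seeing the data. No replicates were copies. In PC3, same-numbered libraries tended to deviate together (r = 0.41, 0.57 and 0.21, beside means of -0.11, -0.40 and -0.03 for other numbers). Deviations were centred within each group, so a positive value for a shared number tends to lower the values for other numbers. The replicate block is therefore given as an alternative. The main PC3 values, and the shares of all genes beside them, come from the fit without it. For replicate 3 a library of another number correlated more closely, so the pairing is not established. Alternatives were DESeq2 1.42.0, its size factors, library size alone, no filter, the block, 1 fit of all libraries and leaving out each library.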

Additional observations from a re-analysis of the deposited data

Results flagged for a closer look

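The response to siFOXA1 differed between the lines by the edgeR test of the difference (VCaP minus PC3, log2, adjusted p under 0.05) for 8 of the genes followed beside the carbonic anhydrases. Among the bicarbonate transport genes these were SLC4A2 at -0.42 (SE 0.11), SLC4A3 at -0.84 (SE 0.16), SLC4A8 at -1.13 (SE 0.14) and SLC4A10 at -2.09 (SE 0.23), the last at under 1 CPM in PC3. The sodium-proton exchanger SLC9A3 gave -2.01 (SE 0.22), VEGFA of the hypoxia list 1.21 (SE 0.29), the pseudogene CA5BP 0.63 (SE 0.13) and the siRNA target FOXA1 -1.94 (SE 0.15).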

How the results depend on the processing

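In PC3 the called carbonic anhydrase genes numbered 2 to 4 when 1 library was left out, and the called genes overall 3963 to 7628; with the replicate block the latter were 11333 (5217 higher, 6116 lower) against 7344. PC3 acid-base calls ranged from 4 to 11 with 1 library left out and were 14 with the block. The block also changed the PC3 calls of CA14 and SLC4A3 and, in VCaP, that of KDM3A (called with the block), and no other call of a gene named in the report in the fits within a line; in the test of the difference between lines it added EMB, SLC9A2, SLC9A9, ADM, SLC2A1 and ANKRD37. Scaling by library size alone called 4607 PC3 genes higher and 2562 lower, against 3675 and 3669. In VCaP the same-numbered libraries correlated at 0.092, 0.036 and 0.35, beside means of -0.021, 0.0016 and -0.21 for other numbers. Replicate 3 alone was closest to its own number, so the pairing is not established there either. With the block, 3 carbonic anhydrase genes stayed called in VCaP. Signs turned with 1 library left out for SLC9A3 in PC3 (-0.23 to 0.0013, positive without NSI replicate 2) and, in VCaP, for CA11 (-0.013 to 0.36, negative without siFOXA1 replicate 3) and CA12 (-0.0022 to 0.10, negative without NSI replicate 3, at -0.00085, or siFOXA1 replicate 1). The difference between lines ranged from -1.02 to 0.45 for CA9 (positive, at 0.29, 0.23 and 0.45, without VCaP NSI replicate 1, NSI replicate 3 and siFOXA1 replicate 1) and from -0.34 to 0.017 for CA13 (positive without VCaP siFOXA1 replicate 3). The cause was not tested. CA4 in VCaP kept its direction and call in all 12 alternatives, at 5.97 to 6.24 log2, and CA5B at 0.98 to 1.23. Depth limits CA2 in both lines, CA4 and CA8 in PC3 and CA9 in VCaP.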
